A study of Homo sapiens with 4 samples.

Results

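Interferon-stimulated genes are the antiviral and signalling genes that cells switch on after type I interferon, and 42 of them, listed by symbol and matched through their Ensembl identifiers, were followed among the 58037 genes of the count table. The RNA came from OCI-AML3, an established human acute myeloid leukemia cell line that carries a heterozygous NPM1 mutation (mtNPM1, which moves the nucleolar protein NPM1 into the cytoplasm), a heterozygous DNMT3A mutation and a homozygous NRAS mutation, all of which the control cells also carry. Cells were transfected with a negative control guide RNA (sgNeg in the labels, called sgRNA Ctrl in the study) or with sgNPM1A, a guide for CRISPR-Cas9 editing of mtNPM1, and were harvested after 72 h, on day 3, with 2 libraries per condition. The libraries were made from whole transfected cultures, the labels name no single-cell clone, and no interferon treatment is named for either condition. In such bulk RNA, fewer cells that express a gene and less RNA of it per cell cannot be told apart.

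Type I interferons bind the receptor formed by IFNAR1 and IFNAR2, whose kinases JAK1 and TYK2 activate STAT proteins. STAT2 and IRF9 are parts of the complex ISGF3, which binds the interferon-stimulated response element (ISRE) in the promoters of its target genes, and interferon regulatory factors can bind related sequences. Many target genes keep a basal level without added interferon, and their products sense or degrade viral RNA, block viral entry and translation, or attach the ubiquitin-like protein ISG15 to other proteins.

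To look for the ISRE in these genes, promoter windows from RefSeq (GRCh38.p14) were read for 35 of the 42 members, leaving IFITM2, USP18, MX2, TRIM22, OASL, OAS2 and IFIT2. Each promoter held 250 bases before and 50 bases after a start site, and the ISRE-like letters GAAANNGAAA were searched on both strands, the other strand reading TTTCNNTTTC, with overlapping matches counted. Of all 35116 RefSeq promoters 3.57% held a match, as did 4.38% of the 27305 genes with a promoter. Among the members it was 25 of 35 (71.4%). The windows below lie before the start site and are shown because these genes fell in the sgNPM1A libraries. Each is written 5′ to 3′ on the strand of the gene, with the fixed letters of the match in capitals.
IFIT1 (chr10:89392477-89392559, plus strand): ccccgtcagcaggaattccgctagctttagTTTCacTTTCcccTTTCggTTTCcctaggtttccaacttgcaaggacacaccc
IFIT5 (chr10:89414493-89414567, plus strand): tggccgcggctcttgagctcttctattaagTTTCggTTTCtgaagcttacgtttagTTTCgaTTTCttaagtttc
OAS3 (chr12:112938301-112938473, plus strand): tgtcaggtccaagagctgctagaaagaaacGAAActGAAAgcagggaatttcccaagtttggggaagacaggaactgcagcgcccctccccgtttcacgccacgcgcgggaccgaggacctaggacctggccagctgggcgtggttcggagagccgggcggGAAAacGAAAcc
ISG15 (chr1:1013354-1013429, plus strand): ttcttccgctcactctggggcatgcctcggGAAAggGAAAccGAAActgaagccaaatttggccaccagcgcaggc
IFITM3 (chr11:320861-320942, minus strand): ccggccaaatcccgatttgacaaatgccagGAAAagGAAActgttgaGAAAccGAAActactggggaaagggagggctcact
BST2 (chr19:17405715-17405790, minus strand): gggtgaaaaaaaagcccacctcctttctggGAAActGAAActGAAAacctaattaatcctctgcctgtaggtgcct
SAMD9 (chr7:93118076-93118145, minus strand): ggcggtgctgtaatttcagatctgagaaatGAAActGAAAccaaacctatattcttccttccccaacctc
PARP14 (chr3:122680780-122680838, plus strand): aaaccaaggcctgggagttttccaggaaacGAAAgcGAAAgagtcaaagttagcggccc
LGALS3BP (chr17:78979942-78980011, minus strand): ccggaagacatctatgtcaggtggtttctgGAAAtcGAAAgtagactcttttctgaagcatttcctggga
IFIT5 and IFIH1, both called lower, held 3 matches each, the last of IFIT5 reaching past the start site and so not shown. In the next windows, from members that were not called, the same letters likewise occurred 3 times each.
IFI6 (chr1:27672246-27672378, minus strand): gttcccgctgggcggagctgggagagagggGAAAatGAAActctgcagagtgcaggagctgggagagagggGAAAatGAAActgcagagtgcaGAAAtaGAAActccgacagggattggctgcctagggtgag
HERC5 (chr4:88456964-88457084, plus strand): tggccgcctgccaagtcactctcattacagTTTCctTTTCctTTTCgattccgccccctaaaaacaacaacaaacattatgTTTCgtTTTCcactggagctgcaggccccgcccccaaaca
A match was found for 14 of the 19 members called lower that had a promoter and for 8 of the 12 tested members that were not called. OAS1, IFI16, HERC6, SAMD9L and IFI35 were called lower with no match in this window. CMPK2, the member called higher with a promoter, had none either. A match describes these letters only, and binding was not measured.

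The 4 libraries held between 25069484 and 28276391 counts assigned to genes, so that 3 counts corresponded to 0.108 to 0.118 CPM, the gene's count scaled to a common library size with TMM normalization. The myeloid genes PTPRC, CD33, SPI1 and CEBPA were expressed in every library, while the T cell gene CD3E, the B cell gene MS4A1 and the epithelial gene EPCAM had no counts. The summed level of the 7 matched markers of other cell types was 29.6 and 30.2 CPM in the sgRNA Ctrl libraries and 14.2 and 11.0 CPM in the sgNPM1A libraries, nearly all of it from COL1A2, a collagen gene, and its part in the results was not tested. NPM1 mRNA itself, which the table does not split into mutant and wild-type alleles, was at 1319 and 1385 CPM in the sgRNA Ctrl libraries and at 1189 and 1132 CPM in the sgNPM1A libraries. Its log2 fold change was -0.22 (adjusted p = 0.0360, edgeR), short of the change of 0.32 required of a call, and so the counts do not show how many cells were edited.

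To ask how the interferon-stimulated genes differed between the conditions, a gene counted as higher or lower when edgeR's quasi-likelihood test gave it an adjusted p (Benjamini-Hochberg) under 0.05 and its log2 fold change reached 0.32 in size, the cut-off fold of the study. The filter on low counts kept 39 of the 42 members, and 23 of these fell, 2 rose (TRIM22 and CMPK2) and 14 were not called. Of all 15718 tested genes 10.3% were called lower, 10.5% were called higher and 20.8% were called in either direction. The 23 members called lower had log2 fold changes from -1.93 to -0.40, and 10 of them fell by at least 2-fold. Of these 10, IFIT1, IFIT2 and IFI44L passed the filter on low counts only because of their sgRNA Ctrl counts. The median log2 fold change of the 39 tested members was -0.53, beside 0.00 for all tested genes. In 31 members both sgNPM1A libraries lay below both sgRNA Ctrl libraries and in 4 both lay above, while 31.7% of all tested genes were separated downward and 31.4% upward. The 31 include IFIT1, IFIT2 and IFI44L, and the 4 include RSAD2, which needed its sgNPM1A counts to pass the filter on low counts. Among members with at least 10 counts in every library, which leaves out IFIT1, IFIT2, IFI44L and RSAD2, 20 were called lower and 2 higher. The study describes the libraries as biological replicates, the labels do not say how they were separated, and the p-values measure the spread between these libraries alone.

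**Figure D1:**
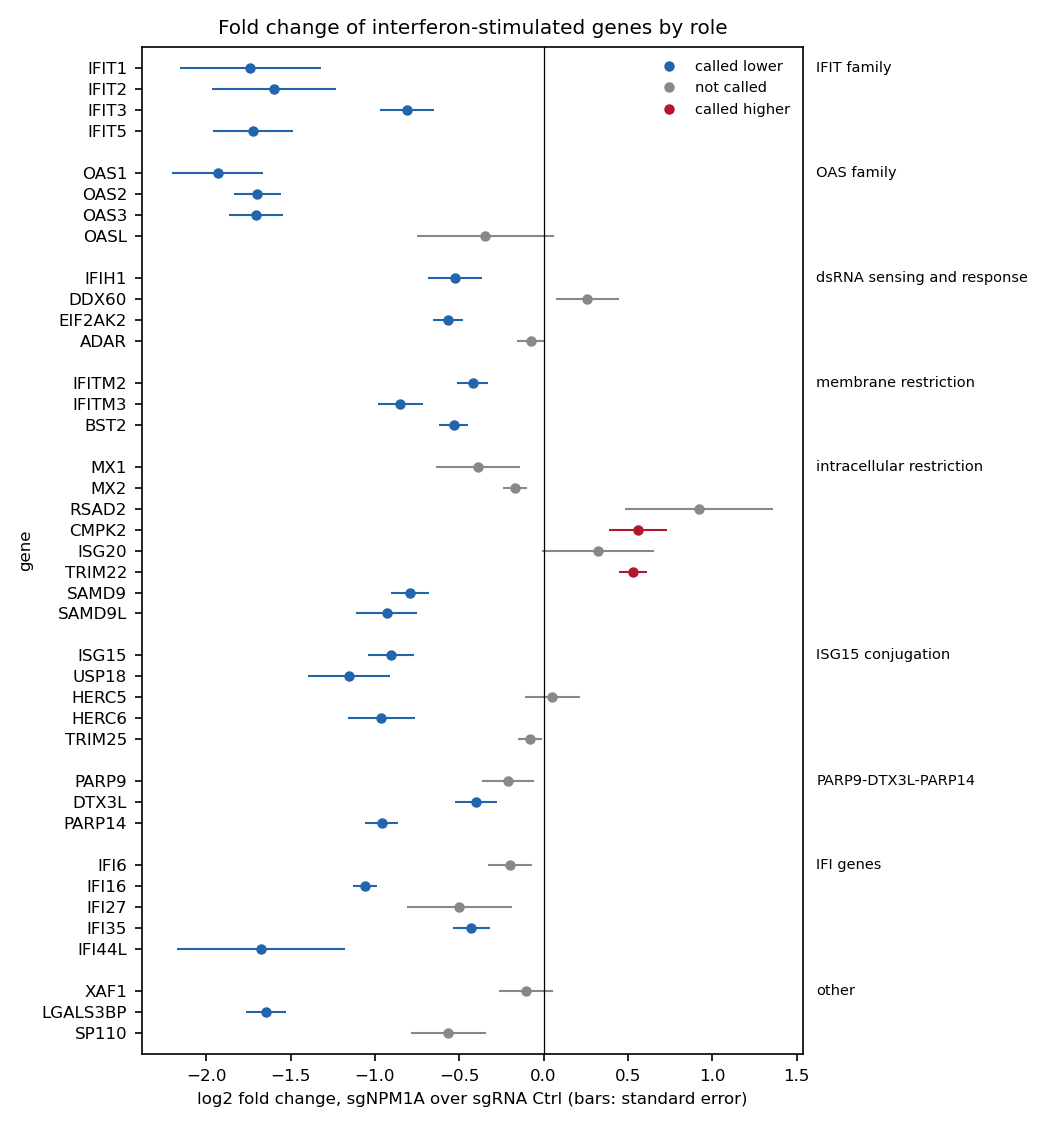
Fitted log2 fold change (sgNPM1A over sgRNA Ctrl, horizontal axis) with its standard error for the 39 tested members, grouped by role, blue for called lower, red for called higher and grey for not called. Of the 39 points 33 lie left of 0, and the IFIT and OAS families hold most of those below -1.5. Among the points below -1.5, IFIT1, IFIT2 and IFI44L passed the filter on low counts only through the sgRNA Ctrl libraries.

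Summed over all 42 members, the level was 1404 and 1405 CPM in the sgRNA Ctrl libraries and 1091 and 1077 CPM in the sgNPM1A libraries. This sum mostly followed a few genes, since ADAR, BST2, IFI16 and IFITM2 made up 64.8% of it in the sgRNA Ctrl cells. Per length, BST2 was the most abundant member at 238 CPM per kb of exon in the sgRNA Ctrl cells, followed by IFITM2 at 75.9, ADAR at 30.7 and IFI16 at 28.5 CPM per kb. The median over the tested members was 1.16 CPM per kb, so most members were expressed far below these 4 in both conditions.

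**Figure D2:**
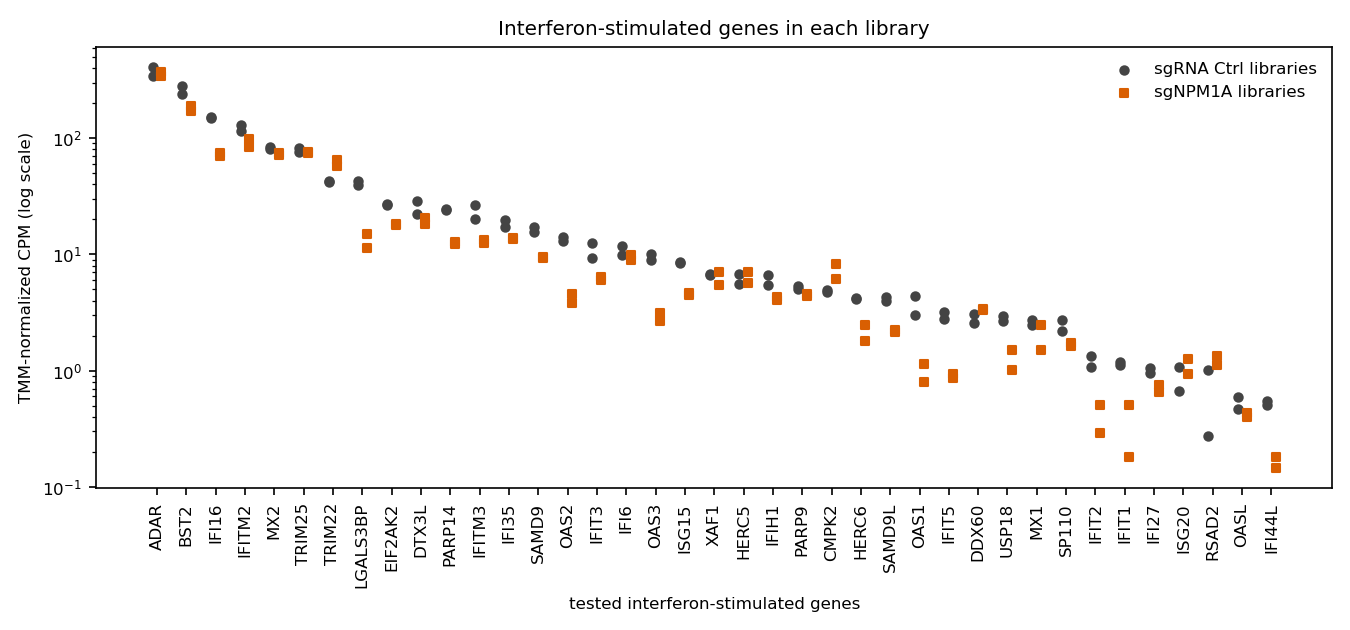
TMM-normalized CPM (log axis) of the 39 tested members in each library, ordered by their mean in sgRNA Ctrl, with circles for the 2 sgRNA Ctrl libraries and squares for the 2 sgNPM1A libraries. The squares lie below the circles for 31 members and above them for 4, among them TRIM22 and CMPK2. IFIT1, IFIT2, IFI44L and RSAD2 passed the filter on low counts only with the counts of their higher condition.

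All 4 IFIT genes fell. Their proteins are built of tetratricopeptide repeats, some of them bind viral RNA or restrain its translation, and IFIT3 binds and stabilizes IFIT1. IFIT5 was at 2.75 and 3.20 CPM in the sgRNA Ctrl libraries and at 0.933 and 0.864 CPM in the sgNPM1A libraries. With no overlap between the groups, its level fell 3.30-fold (log2 fold change -1.72, SE 0.24, adjusted p = 0.000284). IFIT3, the most abundant of the family, was at 9.24 and 12.5 CPM against 6.39 and 6.01 CPM, a log2 fold change of -0.81 (SE 0.16, adjusted p = 0.00325). IFIT1 was at 1.18 and 1.12 CPM in the sgRNA Ctrl libraries and at 0.502 and 0.180 CPM in the sgNPM1A libraries. For IFIT2 the levels were 1.34 and 1.08 against 0.502 and 0.288 CPM. In the sgNPM1A libraries IFIT1 had 14 and 5 counts and IFIT2 had 14 and 8. Neither gene would have passed the filter on low counts without the sgRNA Ctrl libraries. Both genes had few counts, and their log2 fold changes of -1.74 (SE 0.42, adjusted p = 0.0106) and -1.60 (SE 0.37, adjusted p = 0.00825) carried wide errors. Without sgRNA Ctrl library 1 the adjusted p was 0.0560 for IFIT1 and 0.0611 for IFIT2, and without sgNPM1A library 2 it was 0.113 and 0.0814. The size of the change also rested on single libraries, since the log2 fold change of IFIT1 was -2.64 without sgNPM1A library 1 and -1.18 without sgNPM1A library 2, and that of IFIT2 was -2.05 and -1.26. DESeq2 gave 0.0758 and 0.0814. IFIT2 shares 8.92% of its 50-base exon sequences with other genes.

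The 2′-5′ oligoadenylate synthetases sense double-stranded RNA and make short 2′-5′-linked oligoadenylates as messengers. OAS1, OAS2 and OAS3 fell together, each more than 3-fold. OAS1 was at 3.03 and 4.40 CPM in the sgRNA Ctrl libraries and at 1.15 and 0.792 CPM in the sgNPM1A libraries, the largest fall of any member (log2 fold change -1.93, SE 0.27, adjusted p = 0.000353). OAS2 had 356 and 335 counts against 126 and 105 counts, or 13.5 ± 0.757 against 4.15 ± 0.522 CPM (SD, n = 2), and its log2 fold change was -1.70 (SE 0.14, adjusted p = 6.87e-06). OAS3 was at 10.1 and 8.88 CPM against 3.16 and 2.67 CPM, and its log2 fold change was likewise -1.70 (SE 0.16, adjusted p = 1.72e-05). In all 3 genes the groups stood well apart. OASL, a relative that lacks synthetase activity, was at 0.590 and 0.463 CPM against 0.395 and 0.432 CPM, and its interval from -1.24 to 0.55 on the log2 scale leaves both directions possible (adjusted p = 0.585).

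Among genes that sense or respond to double-stranded RNA, the kinase gene EIF2AK2 and the sensor gene IFIH1 fell. EIF2AK2 encodes PKR, which blocks translation by phosphorylating eIF2α, and was at 26.9 and 26.4 CPM in the sgRNA Ctrl libraries and 18.1 and 17.9 CPM in the sgNPM1A libraries (log2 fold change -0.57, SE 0.09, adjusted p = 0.000815). IFIH1, which encodes MDA5, was at 5.47 and 6.60 CPM against 4.05 and 4.32 CPM (log2 fold change -0.53, SE 0.16, adjusted p = 0.0325). The groups of IFIH1 did not overlap, yet its call was lost without sgRNA Ctrl library 2 (adjusted p = 0.148), without sgNPM1A library 1 (0.145), without sgNPM1A library 2 (0.0780) and in DESeq2 (0.181). ADAR, whose product edits adenosines in double-stranded RNA, was at 409 and 344 CPM against 344 and 370 CPM. Its groups overlapped, with an interval from -0.26 to 0.11 on the log2 scale (adjusted p = 0.574). For the helicase gene DDX60 the log2 fold change was 0.26 (adjusted p = 0.344).

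Of the genes for proteins that act at membranes, each of the 3 tested fell. BST2 encodes tetherin, which holds budding virus particles at the cell surface, and was at 241 and 283 CPM in the sgRNA Ctrl libraries and at 190 and 172 CPM in the sgNPM1A libraries. This most abundant member fell 1.45-fold (log2 fold change -0.53, SE 0.08, adjusted p = 0.000825). IFITM2 and IFITM3 encode small membrane proteins that hinder viral fusion. IFITM3 was at 20.2 and 26.6 CPM against 13.4 and 12.6 CPM (log2 fold change -0.85, SE 0.13, adjusted p = 0.000698), and IFITM2 was at 114 and 130 CPM against 98.4 and 83.7 CPM (log2 fold change -0.42, SE 0.09, adjusted p = 0.00604). The call of IFITM2 was lost without sgNPM1A library 2 (adjusted p = 0.0957). IFITM1 was not tested, with 6 and 1 counts in the sgRNA Ctrl libraries and 1 and 0 in the sgNPM1A libraries. The family members share from 15.7% to 29.8% of their 50-base exon sequences with other genes, mainly with each other, so reads may be split between them.

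Genes of intracellular restriction factors moved in both directions. SAMD9 and SAMD9L, neighbours that encode large proteins restraining poxviruses and cell growth, fell. SAMD9 was at 15.5 and 17.1 CPM in the sgRNA Ctrl libraries and at 9.54 and 9.26 CPM in the sgNPM1A libraries (log2 fold change -0.79, SE 0.11, adjusted p = 0.000385). SAMD9L was at 3.97 and 4.32 CPM against 2.22 and 2.12 CPM (log2 fold change -0.93, SE 0.18, adjusted p = 0.00314). In the opposite direction, TRIM22, a ubiquitin ligase gene, rose from 42.4 and 41.7 CPM to 57.1 and 64.5 CPM (log2 fold change 0.53, SE 0.08, adjusted p = 0.000772). CMPK2, a mitochondrial nucleotide kinase gene, was at 4.96 and 4.75 CPM against 6.10 and 8.21 CPM (log2 fold change 0.56, SE 0.17, adjusted p = 0.0320). The rise of CMPK2 was not called without sgRNA Ctrl library 1 (adjusted p = 0.0819), sgRNA Ctrl library 2 (0.113) or sgNPM1A library 2 (0.366), nor by DESeq2 (0.124).

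RSAD2, which encodes the antiviral enzyme viperin, was at 0.275 and 1.00 CPM in the sgRNA Ctrl libraries and at 1.33 and 1.12 CPM in the sgNPM1A libraries, with an adjusted p of 0.149. The sgRNA Ctrl libraries differed most here, and the log2 fold change was 0.92 with all libraries and 2.13 without sgRNA Ctrl library 2 (adjusted p = 0.0149) but 0.28 without sgRNA Ctrl library 1 (adjusted p = 0.604). RSAD2 was also called with the replicate number as a block (adjusted p = 0.0443) and with no filter on low counts (0.0490). It passed that filter only with its sgNPM1A counts, since sgRNA Ctrl library 1 had 7 counts. The dynamin-like GTPase genes MX1 and MX2 had log2 fold changes of -0.39 (adjusted p = 0.289) and -0.17 (adjusted p = 0.103), and the exonuclease gene ISG20 one of 0.32 (adjusted p = 0.527). MX2 was one of the more abundant members, at 83.2 and 80.9 CPM against 74.2 and 71.9 CPM, and its interval of -0.32 to -0.01 lay close to 0.

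ISG15, the ubiquitin-like modifier, fell 1.87-fold. It was at 8.38 and 8.57 CPM in the sgRNA Ctrl libraries and at 4.45 and 4.61 CPM in the sgNPM1A libraries (log2 fold change -0.90, SE 0.14, adjusted p = 0.000610). USP18, which encodes the protease that removes ISG15 and also dampens signalling at IFNAR2, was at 2.95 and 2.66 CPM against 1.51 and 1.01 CPM (log2 fold change -1.15, SE 0.24, adjusted p = 0.00511). USP18 shares 11.8% of its 50-base exon sequences with other genes, among them USP41. HERC6 was at 4.21 and 4.13 CPM against 1.79 and 2.49 CPM (log2 fold change -0.96, SE 0.20, adjusted p = 0.00480). The ligase gene HERC5, which encodes the main ISG15 ligase in human cells, overlapped between the groups at 6.77 and 5.52 CPM against 5.70 and 7.02 CPM (interval -0.31 to 0.41 on the log2 scale, adjusted p = 0.851). For TRIM25 the log2 fold change was -0.08 (adjusted p = 0.464). Outside the member list, the activating enzyme gene UBA7 fell from 67.7 and 80.9 CPM to 57.9 and 46.5 CPM, and the conjugating enzyme gene UBE2L6 fell from 27.1 and 29.3 CPM to 21.0 and 21.1 CPM. Their log2 fold changes were -0.51 (adjusted p = 0.00652) and -0.42 (adjusted p = 0.00534), so that the modifier and the enzymes of its first conjugation steps were lower while the ligase HERC5 was not called. The call of UBA7 was lost without sgRNA Ctrl library 2 (adjusted p = 0.0554) and without sgNPM1A library 2 (0.0547).

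PARP9 and DTX3L encode partners in a complex of an ADP-ribosyltransferase homologue and a ubiquitin ligase, and PARP14 is a further ADP-ribosyltransferase gene of the same locus. PARP14 fell 1.94-fold, from 24.1 and 24.4 CPM to 12.7 and 12.3 CPM (log2 fold change -0.96, SE 0.10, adjusted p = 2.99e-05). DTX3L was at 28.7 and 22.3 CPM against 18.2 and 20.3 CPM (log2 fold change -0.40, SE 0.12, adjusted p = 0.0338), and this call was lost without sgRNA Ctrl library 1 (adjusted p = 0.217), without sgNPM1A library 1 (0.143) and in DESeq2 (0.0615). For PARP9 the log2 fold change was -0.21 (adjusted p = 0.346).

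Of the genes named for induction by interferon, IFI16 changed most clearly. IFI16, a nuclear DNA sensor gene, was at 148 and 153 CPM in the sgRNA Ctrl libraries and at 75.0 and 69.7 CPM in the sgNPM1A libraries, a 2.09-fold fall (log2 fold change -1.06, SE 0.07, adjusted p = 1.37e-06). IFI35 was at 17.1 and 19.7 CPM against 13.8 and 13.5 CPM (log2 fold change -0.43, SE 0.11, adjusted p = 0.0137), and its call was lost without sgRNA Ctrl library 2 (adjusted p = 0.0698) and without sgNPM1A library 2 (0.0747). IFI44L had 14 and 13 counts against 5 and 4 counts, and passed the filter on low counts only through the sgRNA Ctrl libraries. Its log2 fold change of -1.67 (SE 0.50, adjusted p = 0.0288) was not called in DESeq2 (0.286) or when any single library was left out (0.107 to 0.229). IFI6 and IFI27, genes of small mitochondrial proteins, had log2 fold changes of -0.20 (adjusted p = 0.290) and -0.50 (adjusted p = 0.273). IFI44, with 6 and 12 counts against 5 and 3 counts, was not tested.

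Of the remaining members, LGALS3BP fell 3.13-fold. It encodes a secreted glycoprotein that binds galectins, and was at 39.6 and 42.9 CPM in the sgRNA Ctrl libraries and at 14.9 and 11.4 CPM in the sgNPM1A libraries (log2 fold change -1.65, SE 0.12, adjusted p = 2.65e-06). For SP110, a nuclear body gene, the log2 fold change was -0.56 (adjusted p = 0.0853), and XAF1, a gene of a pro-apoptotic protein, one of -0.10 (adjusted p = 0.676). Exons on the opposite strand cover 38.3% of XAF1 and 19.4% of SP110, and whether the counting used strand is not given in the sources used here. EPSTI1 was not tested, with 9 and 4 counts against 1 and 3 counts.

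**Figure D3:**
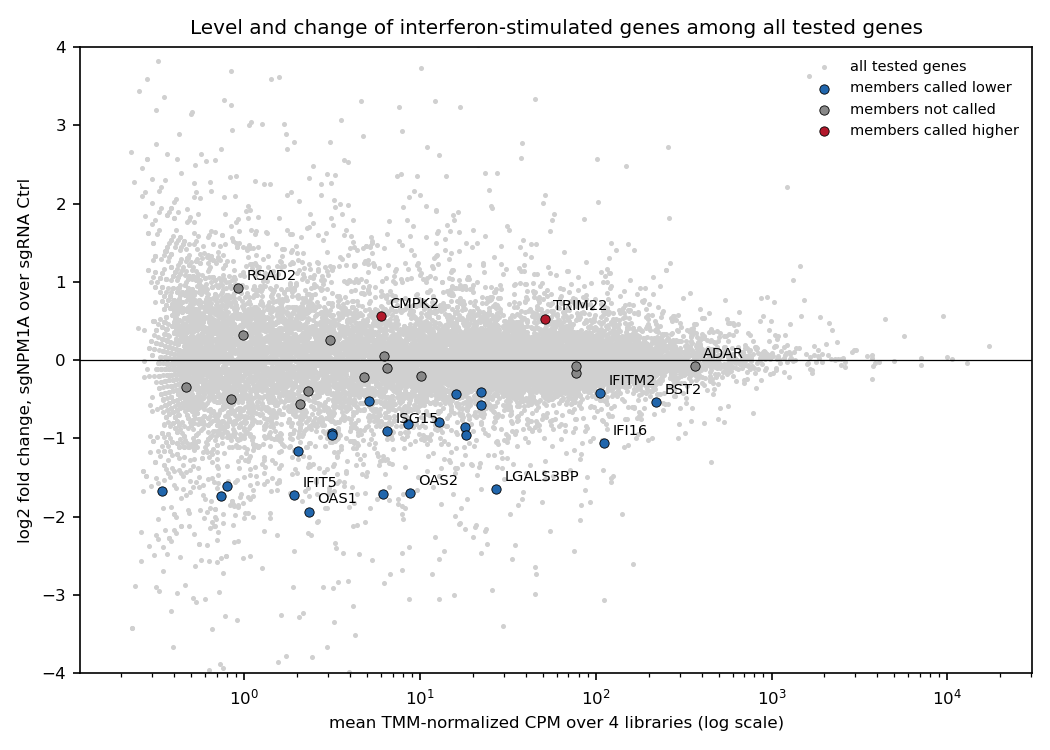
Mean level over the 4 libraries (CPM, log axis) against the fitted log2 fold change for all tested genes (light grey) and for the members, blue for called lower, red for called higher and dark grey for not called, with 30 genes beyond 4 on the vertical axis not drawn. Members called lower reach up to the second highest member level (BST2), while ADAR, the member with most counts, lies near 0. IFI44L, at the lowest level, passed the filter on low counts only through the sgRNA Ctrl libraries.

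Many members lie in clusters of related genes, and their changes were compared along the chromosome (GRCh38.p14, members less than 500 kb apart). Of the 11 neighbouring pairs in which both genes were tested, 7 had both genes called lower. The IFIT pairs among them each include IFIT1 or IFIT2, which passed the filter on low counts only through the sgRNA Ctrl libraries. The call of DTX3L, paired with PARP14, was lost in some alternatives. Pairs within a cluster share genes, and 59.0% of all tested members were called lower. The IFIT genes occupy chromosome 10 from 89302046 to 89420997 and all fell, as did OAS1, OAS3 and OAS2 on chromosome 12 from 112906962 to 113011723. On chromosome 4, HERC6 fell while HERC5, which starts 14021 bases beyond its end, was not called. CMPK2 and RSAD2 overlap on chromosome 2, and both had positive log2 fold changes. Exons of RSAD2 on the opposite strand cover 8.0% of CMPK2, so that without strand some reads could belong to either gene.

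**Figure D4:**
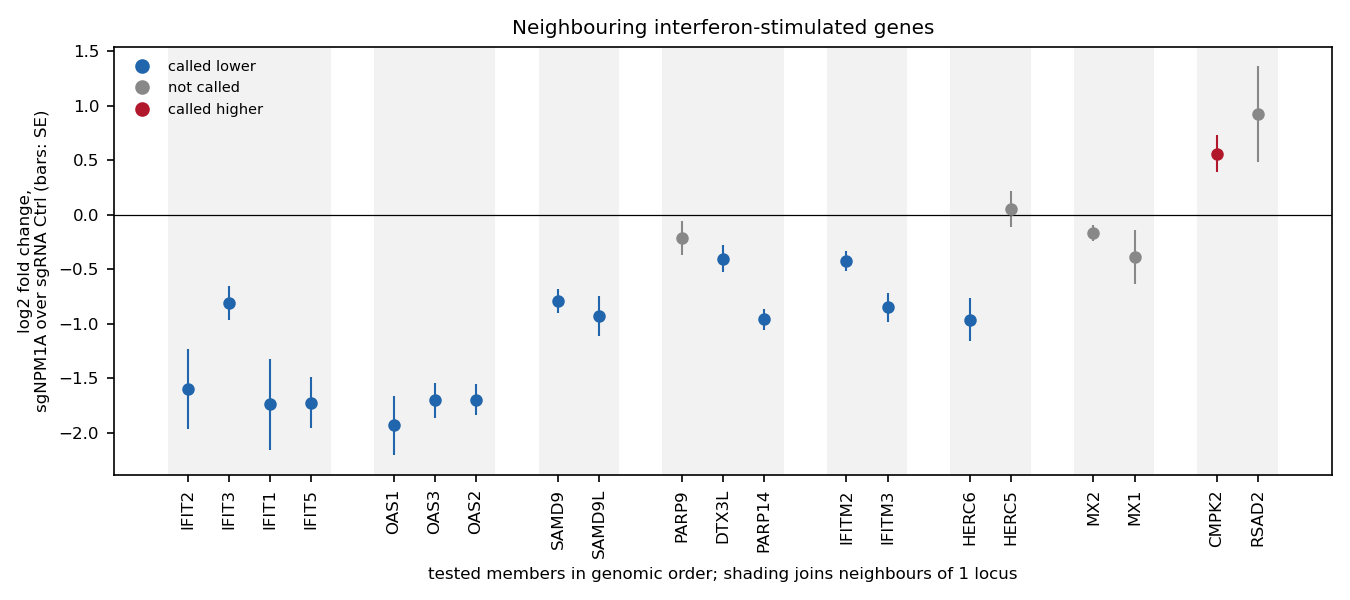
Fitted log2 fold change (vertical axis) with its standard error for tested members in genomic order, where shading joins members of 1 locus, blue marks called lower, red called higher and grey not called. All genes of the IFIT, OAS, SAMD9 and IFITM loci shown are blue, HERC6 and HERC5 differ in call, and CMPK2 and RSAD2 both lie above 0. IFIT1 and IFIT2 passed the filter on low counts only through the sgRNA Ctrl libraries, and RSAD2 only with its sgNPM1A counts.

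To place the members in their pathway, 95 further genes from the ligands to other induced effectors were examined. Among the 61 that could be tested, 9 rose (14.8%) and 15 fell (24.6%), with a median log2 fold change of -0.08. Over all 15718 tested genes 10.5% were called higher and 10.3% were called lower. None of the 21 interferon genes, including 13 IFNA genes, could be tested: 18 had no count in any library, and IFNB1, IFNL1 and IFNW1 had at most 1 count in a library. No interferon gene therefore exceeded 1 count in any library of either condition. How reads that match more than 1 gene were counted is not given in the sources used here. Of the 5 receptor genes tested none was called by edgeR, although IFNGR2 passed the adjusted p with a change below the cut-off (log2 fold change 0.25, adjusted p = 0.0343) and 2 of the 5 had an unadjusted p under 0.05. IFNAR1 was at 48.9 and 50.3 CPM in the sgRNA Ctrl libraries and at 48.8 and 47.5 CPM in the sgNPM1A libraries.

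Of the genes of ISGF3, STAT2 rose from 45.2 and 46.6 CPM to 68.3 and 70.1 CPM (log2 fold change 0.59, SE 0.07, adjusted p = 0.000140). IRF9, the DNA-binding partner, was at 2.05 and 2.74 CPM against 1.76 and 1.98 CPM (log2 fold change -0.36, adjusted p = 0.287). The kinase gene JAK2 rose from 5.39 and 3.32 CPM to 7.14 and 8.21 CPM (log2 fold change 0.82, SE 0.20, adjusted p = 0.0115), a call lost without sgRNA Ctrl library 2 (adjusted p = 0.0625), and JAK1 had an interval from -0.20 to 0.15.

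Interferon regulatory factors changed in both directions, with 3 of 6 lower (50%) and 2 higher (33.3%). Over all tested genes these shares were 10.3% and 10.5%. IRF1, an activator of many interferon-stimulated genes, fell from 78.5 and 90.4 CPM to 45.2 and 39.2 CPM (log2 interval -1.21 to -0.79, SE 0.10, adjusted p = 1.93e-05). IRF2 (log2 fold change -0.69, adjusted p = 0.000137) and IRF7, which amplifies interferon production (-0.52, adjusted p = 0.0127), fell as well, although IRF7 was not called without sgRNA Ctrl library 1 (adjusted p = 0.0638) or sgNPM1A library 1 (0.104). By contrast IRF5 rose 2.81-fold from 63.3 and 64.2 CPM to 175 and 183 CPM (adjusted p = 9.52e-08). IRF8, a factor of the myeloid lineage, also rose (log2 fold change 0.80, adjusted p = 1.08e-05). For IRF3 the log2 fold change was -0.17 (adjusted p = 0.146).

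Among sensors, RIGI, the RNA helicase gene related to IFIH1, fell from 7.67 and 8.69 CPM to 4.92 and 4.93 CPM (log2 fold change -0.73, SE 0.14, adjusted p = 0.00301). TLR8, an endosomal receptor for single-stranded RNA, rose from 3 and 7 counts to 40 and 45 counts (log2 fold change 2.94, SE 0.41, adjusted p = 0.000309). It passed the filter on low counts only through the sgNPM1A libraries and was not tested when at least 10 counts were required in every library, and its log2 fold change was 3.64 without sgRNA Ctrl library 2. The other 10 tested sensors and adaptors, MAVS, STING1 and MYD88 among them, were not called. Thus 16.7% of this group was called, against 20.8% of all tested genes. Of 7 negative regulators 1 (14.3%) was called, CISH, a STAT5 target and feedback inhibitor, which rose (log2 fold change 1.04, SE 0.10, adjusted p = 2.19e-05).

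In the 25 tested effectors that were not members, 11 fell (44%) and 3 rose (12%). Over all tested genes 10.3% were called lower and 10.5% higher, so the share that rose was near that of all genes. The largest fall was in GBP4, a guanylate-binding GTPase gene, from 12.2 and 13.8 CPM to 3.48 and 2.88 CPM (log2 fold change -2.03, SE 0.15, adjusted p = 3.23e-06). The cytidine deaminase genes APOBEC3B (log2 fold change -1.67), APOBEC3F (-0.74) and APOBEC3G (-0.55) also fell. Besides UBA7 and UBE2L6, lower levels were also called for PARP10 (-0.43), PARP12 (-0.58), SHFL (-0.53) and TRIM56 (-0.46). The effectors that rose were TRIM14 (1.13), DDX60L (1.07) and TNFSF10 (0.32), which encodes the death ligand TRAIL. TNFSF10 lay at the cut-off and was not called with library size only (0.28), with the upper quartile (0.31), with no filter on low counts, with the replicate block, in DESeq2, or without sgRNA Ctrl library 2 or either sgNPM1A library. The call of PARP12 was lost in DESeq2, with the replicate block and without any single library, with adjusted p from 0.0580 to 0.308. That of APOBEC3F was lost in DESeq2 (adjusted p = 0.159), without sgRNA Ctrl library 1 (0.0875) and without sgNPM1A library 2 (0.198), and that of SHFL without sgRNA Ctrl library 2 (0.0993) and sgNPM1A library 2 (0.0860).

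**Figure D5:**
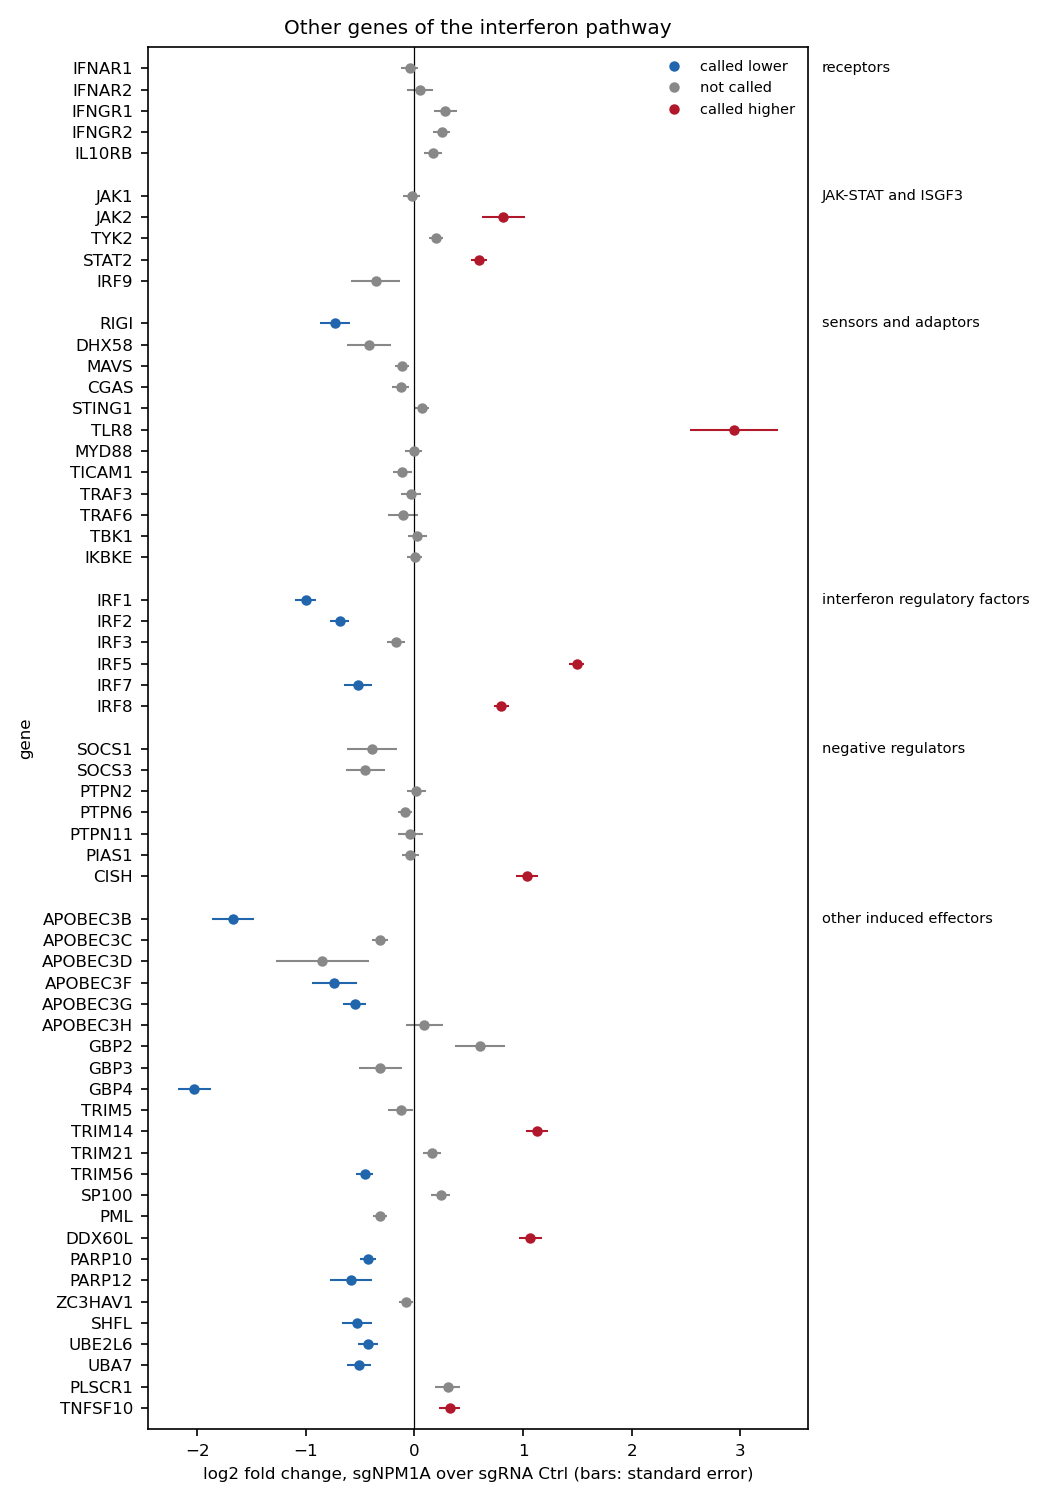
Fitted log2 fold change (sgNPM1A over sgRNA Ctrl, horizontal axis) with its standard error for 59 of the 61 tested pathway genes that were not members, grouped by role, blue for called lower, red for called higher and grey for not called. Receptors lie near 0, the interferon regulatory factors lie on both sides of it, and among the other effectors more points are blue than red.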

How the data were processed

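RNA-seq was performed on OCI-AML3 cells, with 2 sgRNA Ctrl and 2 sgNPM1A libraries grouped by the labels. The authors deposited whole-number counts per gene. The submitters' processing notes name STAR and hg38, and the counting program, annotation and strand setting are not given in the sources used here. The deposited counts summed to between 25069484 and 28276391 per library. All 4 libraries were fitted with edgeR 4.0.16 in R 4.3.3 (TMM normalization, filterByExpr with a minimum count of 10, robust quasi-likelihood F test, two-sided), with Benjamini-Hochberg adjustment over the 15718 tested genes. The standard error is the log2 fold change divided by the square root of F, and intervals are 95%. CPM per kb used the union of exons of GENCODE v44 on GRCh37, for lengths and shared sequences only, and symbols were matched by Ensembl identifier for 55646 of 58037 genes. Positions and promoters came from RefSeq. The fit was tested on simulated counts.

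The members, the pathway list and the roles were chosen with earlier results of these data known. Every member was accounted for, with values in every library for those called and for the 3 most abundant per length. Of the pathway genes, those called and the ISGF3 genes were to be named, 2 of the list are not reported here, and other values of pathway genes were chosen after they were seen. Alternatives were DESeq2 1.42.0, other scalings, filters and fold thresholds, a replicate block and the fit without each library.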

Additional observations from a re-analysis of the deposited data

How the results depend on the processing

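Of the 23 members called lower, 16 stayed called in all 12 alternatives that used the study's fold cut-off, and 7 lost the call in at least 1 (IFIT1, IFIT2, IFIH1, IFITM2, DTX3L, IFI35 and IFI44L). TRIM22 kept its call and CMPK2 lost it, while RSAD2 and SP110 were called in some. DESeq2 called 18 members lower and 1 higher, beside 1142 lower and 1190 higher among all 16005 genes it tested. At a fold threshold of 2, 10 members were lower and 0 higher (edgeR), and 3 other pathway genes were lower and 5 higher. The other scalings and filters gave 20 to 23 lower, beside 1498 to 1947 lower calls over all genes. Leaving out each library in turn gave 17 to 20 members lower, 1 to 2 higher and a median log2 fold change of -0.65 to -0.51, with 11 to 13 other pathway genes lower and 7 to 11 higher. In these fits the lone library was assumed to vary like the other condition. Over these fits the log2 fold change of ADAR ranged from -0.19 to 0.055 (above 0 without sgRNA Ctrl library 1), that of HERC5 from -0.10 to 0.20 (below 0 without sgRNA Ctrl library 2, at -0.088, and without sgNPM1A library 2) and that of XAF1 from -0.31 to 0.078 (above 0 without sgNPM1A library 2). None of these 3 genes was called, and the cause was not tested. With the replicate block 23 members were lower and 3 higher, RSAD2 being the addition. Over all genes this block gave 1604 lower and 1637 higher calls. The labels do not say whether the replicate numbers mark pairs. The deviations of same-numbered libraries correlated at -0.13 over all tested genes and at -0.52 over those above a mean of 10 CPM. Libraries with opposite numbers therefore tended to deviate together. A crossed pairing, added for this reason after the data were seen, gave 24 lower and 3 higher. It also gave more calls over all genes, 1918 lower and 1955 higher. Over all genes, a fold threshold of 2 left 502 lower and 498 higher calls, against 1619 and 1653. With 2 libraries per condition and few counts for IFIT1, IFIT2, IFI44L, RSAD2 and OASL, small changes of these genes could not be resolved.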
